A study of Arabidopsis thaliana with 36 samples.

Results

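Leaf 6 of *Arabidopsis thaliana* was sampled at 4 ages, and 26 of the 19437 genes in the deposited table were lowest at T2, the second time point, in each of the 3 genotypes studied. These 26 genes were chosen by a rule on their own expression values. In each genotype, log2(FPKM + 1) at T2, averaged over 3 libraries, had to lie at least 0.8 below the means of T0, T4 and T6. The 10 named genes of the circadian clock that were left out did not decide the count, since 0 of them met the limit. FPKM is a read count set relative to gene length and to sequencing depth. With library A, B or C left out, 19, 21 and 21 of the 26 genes still met the limit, and 12 met it whichever was left out. Counted in 1 genotype at a time, whatever the others did and with the left-out genes included, 198 genes met the limit in WT, 161 in TM1 and 63 in TM2.

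WT was the Col-0 ecotype, vegetative throughout except that 1 plant had bolted at T6, and TM1 and TM2 were 2 isolates of the *atx1,3,4* triple mutant, from different F1 plants of the same cross, that bolt early. Both isolates carried the same T-DNA alleles, SALK_149002 in *atx1*, GABI_128H01 in *atx3* and SALK_060156 in *atx4*, which hit genes for H3K4 methyltransferases of the Trithorax type. No treatment was given, and all plants grew at 24 °C under 20 h of low light and 4 h of dark. Leaves were taken between 8 and 10 a.m. at 25 (T0), 27 (T2), 29 (T4) and 31 days (T6), and the mutants were bolting from T0. The 10 leaves of a genotype and time point were ground as 1 pool, which was divided into libraries A, B and C, so p-values here measure only how libraries from the same pool vary, not how plants do. As the time points are also separate harvests, age and harvest day cannot be told apart. In bulk leaf RNA, fewer cells of a type and less RNA per cell cannot be told apart either.

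The 26 genes include *ERF6*, *WRKY22*, *PUB22*, *SYP122* and *CYP81F2*, whose products are known from responses to pathogens and stress. In plants, perception of a microbe, of wounding or of touch activates MAP kinases, and within minutes a wave of transcription factors of the ERF and WRKY families and of ubiquitin ligases is transcribed. Secretion of antimicrobial compounds and the modification of indole glucosinolates, sulphur-containing defence compounds of the cabbage family, follow later. Many such transcripts also follow the time of day and the sugar status of the leaf.

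The table came from 36 libraries of 4407618 to 11714474 reads, and the median depth of a time point rose from 6169411 (T0) through 7013969 (T2) and 7232232 (T4) to 7961637 (T6). All 5 leaf mesophyll markers were found in every library, with lowest values of 1380 FPKM for *RBCS1A*, 4590 for *LHCB1.3*, 1580 for *RCA*, 106 for *CA1* and 39.8 for *LHCB2.1*, while the flower genes *AG*, *AP3*, *PI* and *SEP2* and the meristem genes *STM*, *WUS*, *CLV3* and *KNAT1* were not listed. Some marker means stood out at T2, but markers of the same cell type differed. The epidermal genes *FDH* (means of 153, 199, 114 and 96.8 FPKM from T0 to T6) and *CER5* (60.0, 96.7, 55.7 and 55.8) were highest then. The epidermal genes *ATML1* (19.3, 18.3, 14.2 and 14.8) and *PDF1* (32.2, 6.1, 1.75 and 0.919) were highest at T0. The guard cell gene *KAT1* (10.2, 5.66, 6.97 and 8.63) was lowest at T2. The guard cell genes *FMA*, *MYB60* and *GC1* were lowest at T4 (17.3, 7.61 and 3.1 FPKM). The mean of *LHCB2.1* fell from 440 FPKM to 60.2 by T2, stayed near that level by T4 (60.0) and ended at 132. The part of these markers in the values of the 26 genes was not tested. Reads on the 3 targeted genes were present in all genotypes. The median FPKM of *ATX1* was 4.71 in WT, 3.70 in TM1 and 3.77 in TM2, *ATX3* had 4.53, 5.92 and 5.60, and *ATX4* had 4.42, 2.51 and 3.44. Reads of 3′ libraries do not show whether a transcript is full length. The paper checked the genotype by PCR and, by RT-PCR across the insertions, reported that both isolates lacked full-length mRNA.

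The stretches upstream of the 26 genes were read from the TAIR10.1 genome of RefSeq, 250 bases ending just before each annotated gene start. The W-box, the element that WRKY factors bind, was searched on both strands in the form TTGACC alone. Other forms, such as TTGACT, were neither counted nor marked. TTGACC lay upstream of 8 of the 26 genes (30.8%) and of 12.0% of 19331 genes of the table. Those 8 were *PMT6*, *SYP122*, AT1G05675, AT1G78460, AT5G19230, *PP2-B13* with 2 matches, *CYP81F2* and AT3G16530. The evening element AAATATCT, bound by clock proteins, was upstream of 0 of the 26 and of 5.03% of all genes. The CCA1-binding site AAAAATCT was upstream of 1, *J11*, against 6.85% of all, the G-box CACGTG upstream of 2 against 7.44%, the morning element CCACAC upstream of 3 against 6.35%, and the ABRE core ACGTGG upstream of 4 against 9.04%. G-box and ABRE matches can overlap, as CACGTGG holds both. A match is a run of letters and not a bound site. In 7 of those 8 genes the stretch held no part of another gene, and 4 of the 7 are shown as examples, chosen after the values were seen. They are chr3:19427231-19427480 (minus strand) for *SYP122*, chr5:23187590-23187839 (plus) for *CYP81F2*, chr5:6466943-6467192 (plus) for AT5G19230 and chr1:1702750-1702999 (minus) for AT1G05675. Each runs 5′ to 3′ toward the gene, and capitals mark TTGACC, which reads GGTCAA where it lies on the other strand.
SYP122: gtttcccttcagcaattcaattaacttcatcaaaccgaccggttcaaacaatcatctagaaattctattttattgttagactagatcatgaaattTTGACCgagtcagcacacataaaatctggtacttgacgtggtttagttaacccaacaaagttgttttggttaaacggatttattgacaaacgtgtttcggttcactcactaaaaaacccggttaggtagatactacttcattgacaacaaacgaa
CYP81F2: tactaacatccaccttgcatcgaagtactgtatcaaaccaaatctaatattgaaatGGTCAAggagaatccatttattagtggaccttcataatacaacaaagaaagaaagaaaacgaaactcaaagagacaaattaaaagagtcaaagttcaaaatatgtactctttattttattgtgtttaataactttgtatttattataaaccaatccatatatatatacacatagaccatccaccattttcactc
AT5G19230: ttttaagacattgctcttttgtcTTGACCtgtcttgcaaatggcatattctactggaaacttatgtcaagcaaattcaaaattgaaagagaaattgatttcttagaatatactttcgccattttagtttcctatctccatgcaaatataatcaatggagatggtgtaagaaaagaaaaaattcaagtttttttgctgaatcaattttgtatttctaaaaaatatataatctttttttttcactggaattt
AT1G05675: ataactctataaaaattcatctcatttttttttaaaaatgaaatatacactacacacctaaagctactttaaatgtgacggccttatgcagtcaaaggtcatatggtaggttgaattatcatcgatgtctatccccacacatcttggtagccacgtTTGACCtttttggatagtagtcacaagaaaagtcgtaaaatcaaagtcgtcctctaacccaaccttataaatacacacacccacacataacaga
TTGACC began 155 bases before the annotated start in *SYP122*, 194 in *CYP81F2*, 227 in AT5G19230 and 94 in AT1G05675, so this form had no shared position.

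The fall at T2 was large and common to the 3 genotypes, and because the rule chose the genes by it, it is given as a description without a test. The mean of T0, T4 and T6 lay above T2 by a median of 1.52 on the log2(FPKM + 1) scale in WT (range 1.01 to 3.18), 1.95 in TM1 (range 0.956 to 3.43) and 1.35 in TM2 (range 1.03 to 2.54). The same medians over all genes were -0.035, -0.084 and -0.098. In all 26 genes the 3 T2 libraries of a genotype lay below its 9 others, in each genotype, which was so for 0.7% of all genes. In 21 of the 26, all 9 T2 libraries lay below all 27 other libraries (0.36% of all genes).

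**Figure D1:**
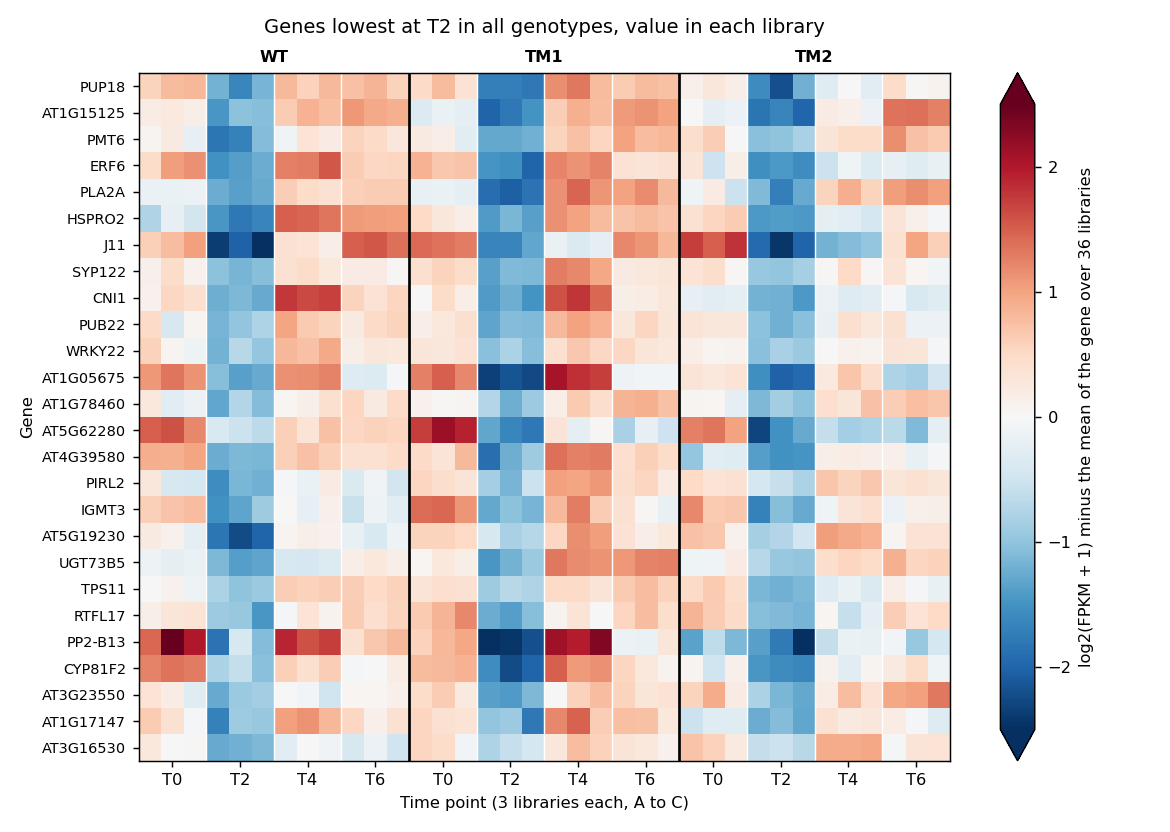
Each row is 1 of the 26 genes, ordered from the largest to the smallest value of the smallest of its 9 differences from T2, and each column is 1 of the 36 libraries, grouped by genotype and time point. Colour gives log2(FPKM + 1) minus the mean of the gene over all libraries, and the T2 columns are the blue bands in WT, TM1 and TM2, with the T4 columns redder in TM1 than in TM2 for most genes.

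*PUP18*, a member of the purine permease family of membrane transporters, came first in this order, with a smallest difference of 1.47. In WT it had 52.0, 60.9 and 62.8 FPKM at T0 in libraries A, B and C, 14.8, 10.7 and 15.1 at T2, 62.4, 52.8 and 61.8 at T4, and 58.7, 63.7 and 52.9 at T6. Its WT level at T2 was therefore a dip between 3 near-equal levels, with ratios of 4.33, 4.36 and 4.32 to T2. AT1G15125, an S-adenosylmethionine-dependent methyltransferase, came next (1.37), followed by *PMT6*, a polyol and monosaccharide transporter of the major facilitator superfamily (1.29), and *ERF6* (1.18). The 3 genes closest to the limit on the inside were AT3G23550, a MATE efflux protein (0.84), AT1G17147, a VQ motif protein (0.83), and AT3G16530, a legume lectin (0.83). The 3 just outside it were *HIR2*, of the hypersensitive-induced reaction family (0.7999), AT3G04640 (0.7927) and *BXL1*, a beta-xylosidase (0.7862). The values ran on across the limit without a gap.

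The 26 genes did not share 1 profile around the dip. The highest of the 4 time points in WT was T0 for 7 genes (21.7% of all genes), T4 for 11 (28.8%) and T6 for 8 (21.5%). In TM1 it was T4 for 18 (23.3%), T0 for 4 (23.4%) and T6 for 4 (22.7%). In TM2 it was T0 for 10 (22.1%), T4 for 7 (21.3%) and T6 for 9 (24.9%). By the rule T2 could not be the highest for any of the 26, while it could for other genes, so these shares are not on an equal footing. A fixed rule that asked for at least 2-fold between T0 and T6 in all 3 genotypes called 1 gene higher early, AT1G05675, 0 higher late and 25 neither. Reads were few at the bottom of the dip in 2 genes, *PP2-B13* and AT5G62280, which had under 10 reads in at least 1 T2 library.

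Among the genes with known roles in defence signalling, *ERF6*, an ethylene response factor phosphorylated by stress-activated MAP kinases, lies on chromosome 4 (9752824 to 9754161, minus strand, 1 exon). In WT it had 38.0, 58.0 and 62.2 FPKM at T0, 8.95, 9.95 and 11.1 at T2, 67.6, 68.2 and 82.3 at T4, and 43.1, 39.9 and 40.5 at T6. In TM1 it had 50.6, 44.6 and 45.5 at T0, 9.29, 8.88 and 6.05 at T2, 65.2, 60.8 and 66.0 at T4, and 35.4, 34.4 and 36.1 at T6. In TM2 it had 34.7, 18.9 and 30.4 at T0, 8.89, 9.59 and 8.68 at T2, 18.6, 25.4 and 21.6 at T4, and 23.7, 22.2 and 24.0 at T6. WT and TM1 thus fell to the level of TM2 at T2 and returned to a peak at T4, whereas the 3 TM2 libraries at T4 all lay below 26 FPKM.

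*CNI1*, also known as *ATL31*, a RING-type ubiquitin ligase of the carbon and nitrogen balance response, lies on chromosome 5 (9683988 to 9685742, plus strand, 1 exon). Its WT libraries had 26.5, 35.6 and 32.4 FPKM at T0, 9.88, 10.6 and 9.54 at T2, 85.9, 78.5 and 82.5 at T4, and 36.5, 31.7 and 35.7 at T6. The TM1 libraries had 24.6, 34.0 and 27.5 at T0, 8.50, 9.86 and 8.01 at T2, 75.7, 86.8 and 67.9 at T4, and 27.2, 27.9 and 30.0 at T6. The TM2 libraries had 21.0, 20.3 and 20.3 at T0, 10.3, 10.0 and 8.39 at T2, 22.1, 19.2 and 20.2 at T4, and 23.8, 18.5 and 19.5 at T6. *CNI1* in TM2 therefore stood at nearly the same level at T0, T4 and T6 and had a dip without a T4 peak.

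*HSPRO2*, the ortholog of a nematode resistance gene of sugar beet, was among the most abundant of the 26, with a mean of 134 FPKM over all libraries. In WT it read 64.3, 94.1 and 78.4 FPKM at T0, 38.8, 30.5 and 33.8 at T2, 306, 299 and 275 at T4, and 230, 226 and 221 at T6. In TM1 the values were 153, 133 and 122 at T0, 40.0, 48.8 and 41.7 at T2, 242, 219 and 189 at T4, and 178, 188 and 178 at T6. In TM2 they were 141, 158 and 169 at T0, 39.6, 40.7 and 39.5 at T2, 91.0, 90.5 and 79.5 at T4, and 136, 118 and 106 at T6. At T0 both isolates lay above WT in all 6 libraries, and at T4 and T6 both lay below WT in all 6.

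**Figure D2:**
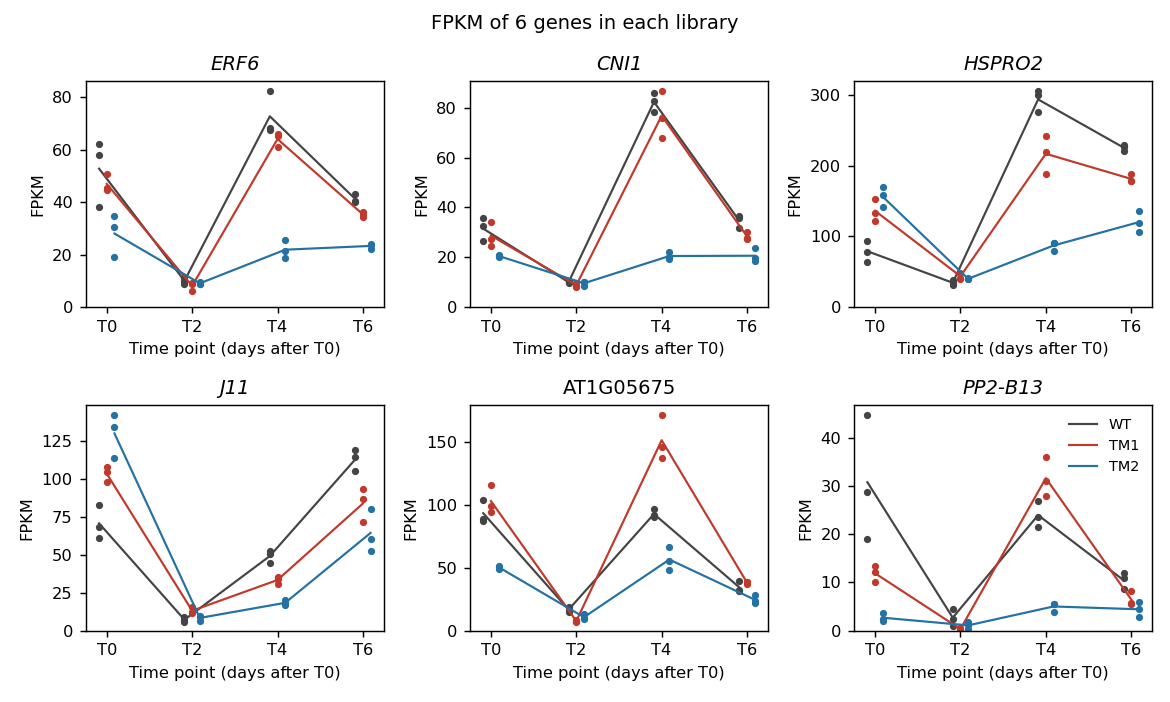
FPKM (vertical axis, linear, from 0) of *ERF6*, *CNI1*, *HSPRO2*, *J11*, AT1G05675 and *PP2-B13* against time point, with a point for each library and a line through the means of the 3 libraries of WT (grey), TM1 (red) and TM2 (blue). All 3 lines come close near the bottom at T2. At T4 the TM2 line stays at a mean of 21.9 FPKM for *ERF6* and 20.5 for *CNI1*, against 64.0 and 76.8 in TM1. For AT1G05675 the TM2 line rises to its highest mean at T4 (56.7 FPKM), below that of TM1 (152).

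The other members with roles in defence signalling had the same low point. *WRKY22*, a WRKY factor downstream of flagellin perception, had means of 36.1, 15.8, 56.7 and 36.8 FPKM at T0, T2, T4 and T6 in WT. *PUB22*, a U-box ubiquitin ligase that dampens immune signalling, had 4.99, 1.88, 8.41 and 6.54, and *SYP122*, a syntaxin of the plasma membrane that takes part in defence secretion, had 99.6, 39.0, 109 and 93.2. Both lie on chromosome 3, *SYP122* from 19425632 to 19427230 and *PUB22* from 19440617 to 19442427, on the minus strand. *PLA2A*, a lipid acyl hydrolase induced by pathogens, had 18.1, 7.72, 28.8 and 31.7 FPKM, and AT3G16530 had 81.3, 32.6, 70.1 and 59.6. AT1G17147 had 23.4, 7.70, 37.0 and 23.3. A stretch of 353 of its 951 transcript bases is 90.9% identical to AT5G25970, a gene that the deposited table does not list. Reads from that stretch cannot be separated with certainty.

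Among enzymes of secondary metabolism, *CYP81F2*, the cytochrome P450 that hydroxylates indole glucosinolates, lies on chromosome 5 (23187840 to 23189902, plus strand, 3 exons). Its WT libraries had 26.8, 29.2 and 28.2 FPKM at T0, 5.78, 6.85 and 4.73 at T2, 16.8, 14.7 and 17.1 at T4, and 10.5, 10.8 and 12.4 at T6. The TM1 libraries had 19.5, 19.7 and 20.6 at T0, 3.05, 1.49 and 1.94 at T2, 32.3, 23.5 and 25.1 at T4, and 16.1, 13.1 and 11.5 at T6. The TM2 libraries had 11.3, 7.37 and 11.9 at T0, 3.33, 2.95 and 2.81 at T2, 11.8, 8.82 and 11.3 at T4, and 12.8, 15.2 and 9.89 at T6. *CYP81F2* was thus highest at T0 in WT and at T4 in TM1. In TM2 its mean was highest at T6 (12.6 FPKM), but the TM2 libraries of T0, T4 and T6 overlapped.

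*IGMT3*, of the family of methyltransferases that act on hydroxylated indole glucosinolates, had WT means of 19.6, 4.48, 11.5 and 9.24 FPKM at T0, T2, T4 and T6. Its reads cannot be separated with certainty from those of 2 close copies, *IGMT2* (96.3% identity over 1359 bases) and *IGMT4* (90.8% over 1388). *IGMT4* dipped at T2 as well, with a smallest difference of 0.751, just under the limit. *IGMT2* was lowest at T2 in TM1 (45.7, 4.26, 19.9 and 6.16 FPKM from T0 to T6) and in TM2 (50.1, 4.07, 12.0 and 5.86). In WT it was not, with 4.64 FPKM at T2 and 3.03 at T6, so its smallest difference was -0.48. *UGT73B5*, a glucosyltransferase linked to pathogen responses, had 24.5, 10.8, 20.8 and 31.7 FPKM in WT, and overlaps the next gene, AT2G15490, on the same strand. AT1G15125, which overlaps AT1G15120 on the same strand, had 95.0, 36.4, 141 and 166.

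AT1G05675, a UDP-glycosyltransferase on chromosome 1 (1701116 to 1702749, minus strand, 2 exons), was the 1 gene at least 2-fold lower at T6 than at T0 in all genotypes. In WT its libraries had 87.6, 104 and 89.2 FPKM at T0, 18.9, 15.3 and 16.4 at T2, 90.12, 91.9 and 96.7 at T4, and 32.3, 31.6 and 39.6 at T6. In TM1 they had 99.1, 116 and 94.6 at T0, 7.26, 8.31 and 7.64 at T2, 172, 146 and 137 at T4, and 37.2, 38.9 and 38.7 at T6. In TM2 they had 51.0, 49.1 and 51.8 at T0, 13.4, 9.20 and 9.84 at T2, 48.1, 66.3 and 55.6 at T4, and 23.3, 22.2 and 28.8 at T6. The T4 level was 19.6 times the T2 level in TM1, 5.52 times in WT and 5.23 times in TM2.

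*J11*, a small DnaJ protein of the chloroplast, on chromosome 4 (17049152 to 17050608, minus strand, 1 exon), had a different order of times. WT had 61.2, 68.8 and 82.8 FPKM at T0, 6.90, 9.02 and 6.01 at T2, 52.4, 50.9 and 44.7 at T4, and 115, 119 and 105 at T6. TM1 had 108, 105 and 98.2 at T0, 12.1, 12.0 and 15.6 at T2, 35.6, 30.8 and 34.2 at T4, and 93.5, 86.8 and 71.7 at T6. TM2 had 135, 114 and 142 at T0, 9.64, 6.63 and 9.20 at T2, 17.0, 18.4 and 20.0 at T4, and 52.6, 80.5 and 60.7 at T6. *J11* recovered only in part at T4, to 2.17 times its T2 level in TM2 and 6.75 times in WT, and went on rising to T6.

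*PP2-B13*, which encodes a protein with homology to phloem lectins, had few reads at T2. WT had 19.1, 44.6 and 28.6 FPKM at T0, 1.06, 4.61 and 2.49 at T2, 26.8, 21.5 and 23.6 at T4, and 8.67, 10.8 and 12.0 at T6. TM1 had 10.1, 12.2 and 13.4 at T0, 0.0999, 0.375 and 0.615 at T2, 31.1, 27.9 and 35.9 at T4, and 5.73, 5.58 and 8.19 at T6. TM2 had 1.95, 3.78 and 2.41 at T0, 1.91, 1.18 and 0.274 at T2, 3.93, 5.63 and 5.55 at T4, and 6.05, 2.83 and 4.48 at T6. The TM1 values at T2 rest on 1 to 4 reads per library and those of TM2 on 2 to 16, so the depth of the dip is poorly fixed in both isolates, and the TM2 libraries at T0 and T2 nearly meet. The gene also overlaps AT1G56242 on the opposite strand, and whether the authors counted by strand is not given in the sources used here. The same holds for AT3G23550 and AT3G16530, which overlap AT3G23540 and AT3G16525.

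AT5G62280, of unknown function (DUF1442), and AT5G19230, a predicted GPI-anchored glycoprotein, differed between genotypes at the low point itself. AT5G62280 had 21.6, 23.2 and 17.55 FPKM at T0, 5.21, 4.55 and 4.097 at T2, 11.2, 9.23 and 12.3 at T4, and 10.5, 10.9 and 10.7 at T6 in WT. Its T2 libraries had 2.25, 1.61 and 1.32 FPKM in TM1 and 0.642, 1.83 and 2.35 in TM2, and those at T6 had 3.56, 5.98 and 4.60 in TM1 and 4.01, 2.76 and 5.92 in TM2. AT5G19230 had 11.6, 8.44 and 10.1 FPKM at T2 in WT, 32.8, 24.3 and 25.9 in TM1 and 24.0, 25.9 and 30.6 in TM2. At T2 the libraries of both isolates therefore lay below all WT libraries in AT5G62280 and above them all in AT5G19230.

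The remaining members are given by their WT means. *TPS11*, a trehalose phosphate synthase-like protein of sugar signalling, had 98.5, 52.2, 150 and 147 FPKM at T0, T2, T4 and T6, and *PMT6* had 12.1, 3.57, 13.4 and 16.5. *RTFL17*, a small peptide of the ROTUNDIFOLIA family, had 41.1, 15.5, 37.6 and 49.9, and *PIRL2*, a leucine-rich repeat protein, had 23.7, 10.2, 26.6 and 21.3. AT1G78460, a SOUL heme-binding protein, had 110, 54.8, 130 and 150, AT4G39580, a kelch repeat protein, had 15.2, 2.79, 12.3 and 10.4, and AT3G23550 had 4.62, 1.60, 3.68 and 4.54.

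Each isolate was then compared with WT of the same age, the comparison that the rule did not use. Values were fitted with limma as log2(FPKM + 1), with p-values adjusted by the Benjamini-Hochberg method over all 19437 genes. To pass the threshold, a gene needed an adjusted p under 0.05 together with a change of 2-fold or more, in both isolates and in 1 direction. Few of the 26 genes passed, though at T0, T2 and T6 these small counts were a larger share of the 26 than of all genes. At T0 the count was 1 of 26 (1.39% of all genes), at T2 it was 2 (2.19%), at T4 it was 0 (1.53%) and at T6 it was 1 (1.01%). On adjusted p alone, without the 2-fold limit, the counts were 7 at T0 (9.87% of all genes), 7 at T2 (17.7%), 7 at T4 (8.26%) and 5 at T6 (5.08%). At each time this was a larger share of the 26 than of all genes. However, 25 of the 26 had a mean FPKM of at least 5, against 57.7% of all genes. Shares of the 26 and of all genes, here and below, are therefore not on an equal footing. The part of expression level in them was not tested. For the 0 at T4, limma with voom on recovered reads also gave 0, and an unadjusted limma p under 0.05, with 1 direction in both isolates, was found for 10 genes (14.9% of all genes).

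At T0, *PP2-B13* fell in both isolates, by 1.23 ± 0.30 (SE) on the log2 scale in TM1 (limma adjusted p = 0.0052) and by 3.05 ± 0.30 in TM2 (adjusted p = 2.7e-09). All 6 mutant libraries lay below the 3 of WT (two-sided exact permutation p = 0.0238), on the same libraries that gave the call. This call was lost when library B or library C was left out, and the count then was 0. At T2, AT5G19230 rose in TM1 by 1.37 ± 0.15 (adjusted p = 3.4e-08) and in TM2 by 1.33 ± 0.15 (9.1e-08), and AT5G62280 fell by 1.05 ± 0.22 and by 1.17 ± 0.22 (adjusted p = 4.0e-04 and 1.5e-04). In both genes all 6 mutant libraries lay on 1 side of WT (exact permutation p = 0.0119, the smallest that 84 arrangements allow). Neither this nor the permutation p of *PP2-B13* adds support, since the threshold chose these genes on the same libraries. At T6, AT5G62280 again fell, by 1.06 ± 0.22 (TM1, adjusted p = 0.00117) and by 1.21 ± 0.22 (TM2, 1.5e-04), a call that was lost without library A, at T2 as well, or without library B. AT5G62280 in TM2 at T2 had as few as 5 reads.

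**Figure D3:**
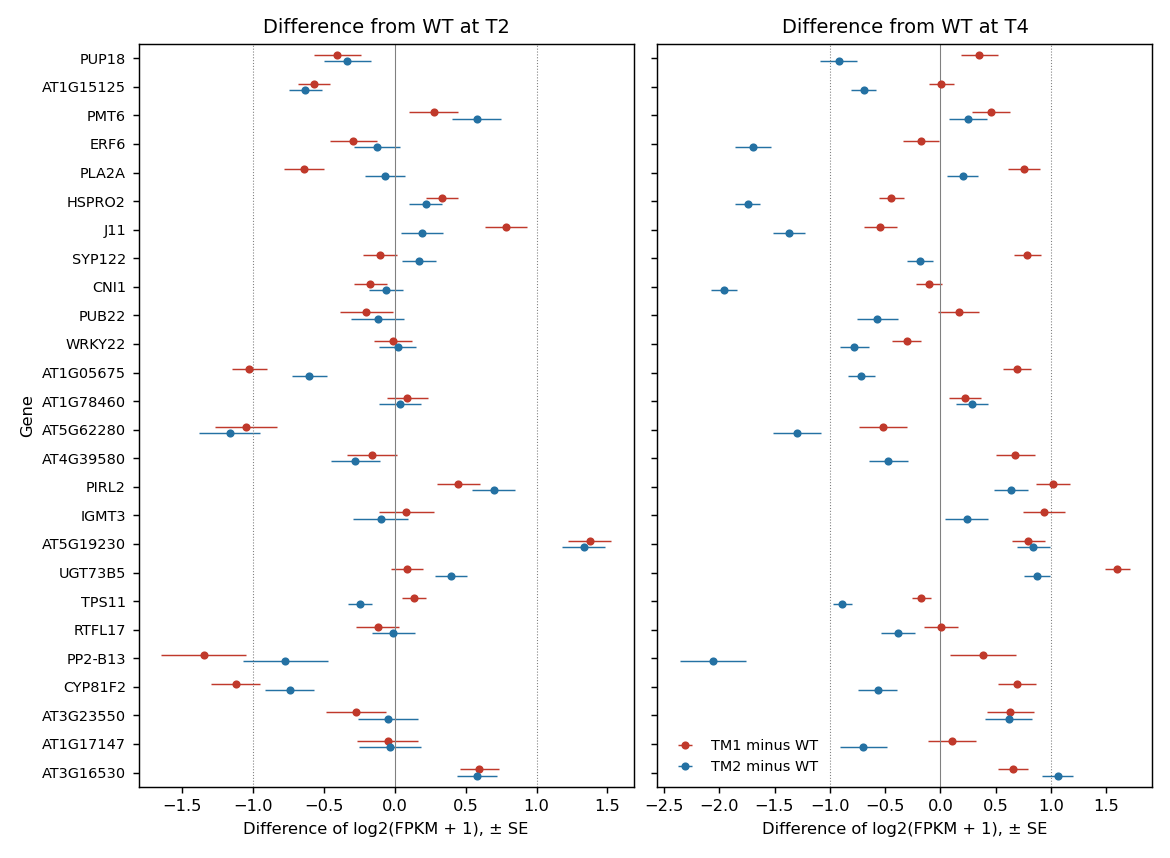
Difference of each isolate from WT in log2(FPKM + 1), with the standard error as bars, for the 26 genes at T2 (left) and T4 (right), TM1 in red and TM2 in blue; dotted lines mark 2-fold. At T2 no gene is past the threshold between the isolates, and at T4 most TM2 points lie left of the TM1 points, with medians of -0.57 and 0.37.

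*PIRL2* and AT5G19230 passed on adjusted p alone in both isolates at all 4 time points, always higher than WT. *PIRL2* was higher by 0.63 in TM1 and 0.59 in TM2 at T0 and by 0.70 and 0.64 at T6. *HSPRO2* was higher at T0 by 0.79 and 0.99 (adjusted p = 7.9e-06 and 7.1e-08) and lower at T4, at -0.44 for TM1 (adjusted p = 0.00704) and -1.74 for TM2 (2.3e-13). *J11* took the same course, at 0.55 and 0.87 at T0 and -0.54 and -1.37 at T4. Their WT libraries were lowest of the genotypes at T0 and highest at T4.

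Taken singly, and sharing the WT libraries, TM1 had 1, 5 and 2 of the 26 genes past the threshold against WT at T0, T2 and T6 (2.17%, 4.24% and 1.79% of all genes). TM2 had 3, 2 and 3 (3.82%, 3.24% and 2.36%). At T2, AT1G05675 and *CYP81F2* were lower in TM1 by changes of -1.03 ± 0.12 and -1.12 ± 0.17, and at T0, AT4G39580 and *CYP81F2* were lower in TM2 by changes of -1.44 ± 0.17 and -1.402 ± 0.17.

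The isolates themselves parted at T4, although both carry the same alleles. Compared with WT at T4, the median of the 26 differences was 0.37 in TM1 and -0.57 in TM2, and 0.00 over all genes in both. TM1 had 2 genes past the threshold against WT there, *PIRL2* and *UGT73B5*, both higher (2.47% of all genes), and TM2 had 7 (3.79%). Of those 7, AT3G16530 was higher and *ERF6*, *HSPRO2*, *J11*, *CNI1*, AT5G62280 and *PP2-B13* were lower. *UGT73B5* was higher in TM1 by 1.60 ± 0.11 at T4 and by 1.00 ± 0.11 at T6, and *CNI1* was lower in TM2 by a change of -1.96 ± 0.12 at T4.

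The direct comparison of TM1 with TM2 shares no WT library. At T4, 8 of the 26 genes were past the threshold (1.09% of all genes) and all 8 were higher in TM1, the direction of 0.725% of all genes. The median difference was 0.73 over the 26 genes and 0.004 over all genes. *PP2-B13* was higher in TM1 by 2.44 ± 0.30, *CNI1* by 1.85 ± 0.12, *ERF6* by 1.52 ± 0.16, AT1G05675 by 1.41 ± 0.12 and *HSPRO2* by 1.302 ± 0.11. *PUP18* was higher by 1.27 ± 0.17, *CYP81F2* by 1.26 ± 0.17 and AT4G39580 by 1.147 ± 0.17. The limma adjusted p of these 8 lay between 4.7e-13 and 2.3e-05. For *PUP18* the 3 libraries at T4 had 79.1, 89.0 and 61.0 FPKM in TM1 and 28.3, 34.96 and 28.9 in TM2, and for AT4G39580 they had 21.1, 19.4 and 20.0 in TM1 and 8.44, 8.64 and 8.60 in TM2. The groups did not overlap in any of the 8, which adds no support, since the threshold chose them on the same libraries.

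Counted on adjusted p alone, 19 of the 26 were higher in TM1 at T4 and 0 lower (6.68% of all genes in either direction). *SYP122* (0.97 ± 0.12) was nearest to the 2-fold limit among the 11 that it held back. The 3 TM1 libraries lay above the 3 TM2 libraries in 21 of the 26 (11.9% of all genes) and below them in 1 (9.94%). Leaving out library A, B or C in turn gave 8, 9 and 9 genes past the threshold. The rule asked for a rise from T2 to T4 within each isolate and not for a difference between them, but the smallest of the 9 differences lay at T4 in TM2 for 9 of the 26, more than at any other group and time. The TM1 libraries at T4 had 4653963 to 7232232 reads and the TM2 libraries 5130608 to 7421305, and the part of depth in the difference was not tested. The pools of the isolates were single, so isolate and pool cannot be told apart.

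**Figure D4:**
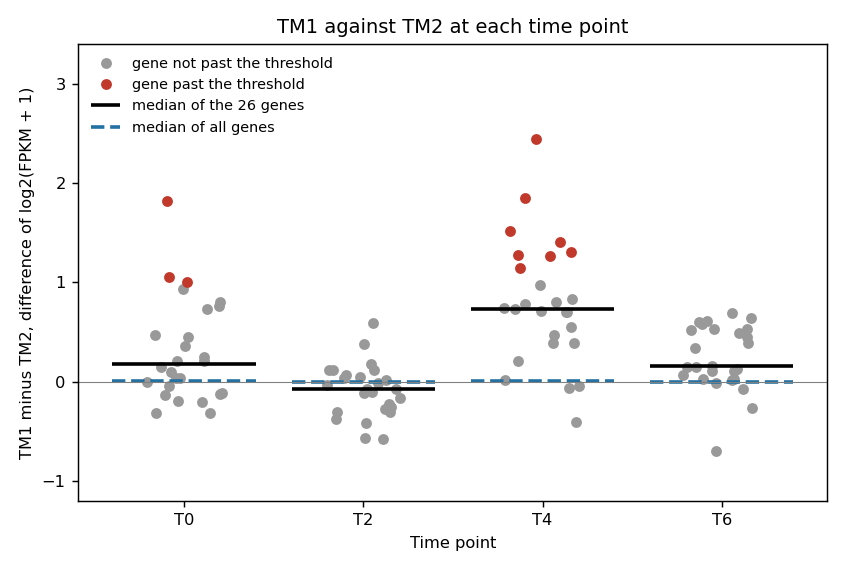
Difference of TM1 from TM2 in log2(FPKM + 1) for each of the 26 genes (points) at T0, T2, T4 and T6, with genes past the threshold in red, the median of the 26 as a black line and the median of all genes as a dashed line. The points at T4 sit around a median of 0.73, with 8 in red, while the medians at the other times lie between -0.074 and 0.18.

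At the other time points the isolates lay closer. On adjusted p alone 7 genes differed at T0 (3.29% of all genes). There, 3 genes were past the threshold, all higher in TM1 (0.401% of all genes in either direction), and these were AT1G05675 at 1.01 ± 0.12, AT4G39580 at 1.05 ± 0.17 and *PP2-B13* at 1.82 ± 0.30. For AT4G39580 the T0 libraries had 10.9, 9.69 and 14.0 FPKM in TM1 and 3.38, 6.03 and 5.89 in TM2. Each of these 3 calls was lost when 1 library letter was left out. AT1G05675 (0.90 without B) and AT4G39580 (0.86 without A) fell below 2-fold, while *PP2-B13* stayed at 1.69 without C but missed the limma adjusted p. At T2 the count was 0 (0.278%), as with voom, with 3 genes on adjusted p alone (1.05%) and 7 at an unadjusted limma p under 0.05 (8.59%). At T6 it was 0 as well (0.545%), also with voom, with 5 on adjusted p alone (2.39%) and 12 on unadjusted limma p (11.9%). The 5 at T6, all higher in TM1, were *HSPRO2*, *CNI1*, AT1G05675, *UGT73B5* and *TPS11*.

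Between T0 and T6, a pair of times that the rule did not set against each other, the 26 genes moved in both directions. In WT 5 genes were past the threshold (11.0% of all genes), in TM1 6 (11.2%) and in TM2 5 (10.8%). On adjusted p alone the counts were 14 in WT (38.5%), 12 in TM1 (38.9%) and 13 in TM2 (38.8%). In WT *HSPRO2* rose by 1.52 ± 0.11, while the changes of AT1G05675, *PP2-B13*, *CYP81F2* and *IGMT3* were -1.42 ± 0.12, -1.397 ± 0.30, -1.25 ± 0.17 and -1.02 ± 0.19. In TM1 AT1G15125 rose by 1.31 ± 0.11, *PLA2A* by 1.19 ± 0.14 and *UGT73B5* by 1.04 ± 0.11, while the changes of AT5G62280, AT1G05675 and *IGMT3* were -2.45 ± 0.22, -1.403 ± 0.12 and -1.24 ± 0.19. In TM2 AT1G15125 rose by 1.46 ± 0.11 and *PLA2A* by 1.22 ± 0.14, while the changes of AT5G62280, *J11* and AT1G05675 were -1.87 ± 0.22, -1.02 ± 0.15 and -1.01 ± 0.12. All limma adjusted p of these changes were at most 3.4e-04. With 1 library letter left out, the call was lost for *IGMT3* in WT (A), *UGT73B5* in TM1 (C), and AT1G05675 (A or B) and *J11* (A or C) in TM2, where 3 of the 5 genes were left without A.

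**Figure D5:**
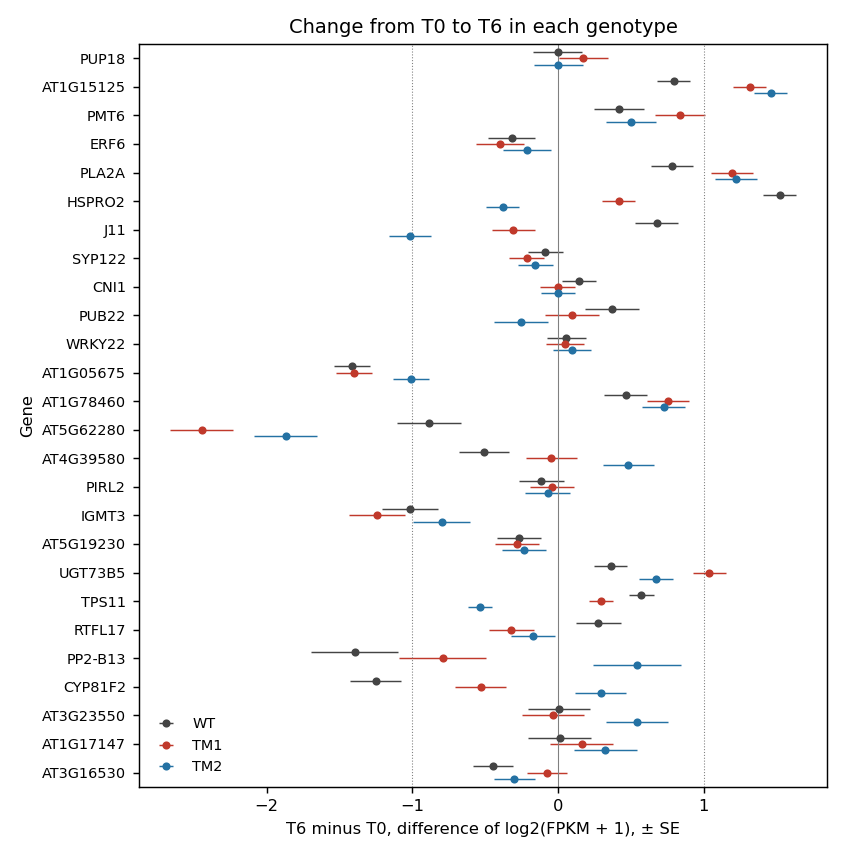
Change from T0 to T6 in log2(FPKM + 1), with the standard error as bars, for the 26 genes in WT (grey), TM1 (red) and TM2 (blue); dotted lines mark 2-fold. AT1G05675 lies at or left of the lower dotted line in all 3 genotypes, and *HSPRO2* lies at 1.52 in WT, 0.42 in TM1 and -0.38 in TM2.

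The change from T0 to T6 differed between the mutants, taken as the mean of TM1 and TM2, and WT in 5 of the 26 genes (2.48% of all genes), or in 9 on adjusted p alone (8.78%). *HSPRO2* (difference -1.501 ± 0.14, limma adjusted p = 3.2e-09) rose in WT and less in TM1, and was lower at T6 than at T0 in TM2. *J11* (-1.34 ± 0.18, adjusted p = 3.3e-06) changed by 0.68 in WT, -0.31 in TM1 and -1.02 in TM2. AT5G62280 (-1.27 ± 0.27, adjusted p = 0.00152) changed by -0.89, -2.45 and -1.87. *PP2-B13* (1.27 ± 0.37, adjusted p = 0.0239) and *CYP81F2* (1.13 ± 0.21, adjusted p = 4.7e-04) differed the other way, with changes of -1.25 in WT, -0.53 in TM1 and 0.29 in TM2 for *CYP81F2*. Without library B, 2 of the 5 were left, *HSPRO2* and *J11*, and the call of *PP2-B13* was lost whichever of the 3 letters was left out.

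Lists of related pathways were set beside the 26 genes by how many of their members were lowest at T2 in all 3 genotypes by any amount, which was so for 621 of 19437 genes. The rule chose the 26 by these same differences, and the lists were chosen with earlier results of these data known. The counts are therefore a description without a test, and members of the 26 count in their list by construction. The list of touch, wound and early stress genes had 15 such genes of 30 in the table, among them *ERF6*, the list's only member of the 26, and its median of the mean of the other times minus T2 was 0.92. Carbon-starvation and dark-induced genes had 8 of 18, with *TPS11* among them and a median of 0.47. Light-signalling factors had 9 of 31 and clock-associated genes outside the left-out 10 had 8 of 24, with 0 of the 26 genes on either list. Auxin-responsive genes had 3 of 24, cold-response genes 1 of 15 and nitrate assimilation genes 1 of 17. Jasmonate, heat shock, starch and sugar, flavonoid, photosynthesis and ribosome biogenesis lists had 0 of 18, 17, 19, 12, 26 and 17. The median over all genes was -0.079.

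TM1 was above TM2 past the threshold in 13 of its 30 genes at T4 and below in 0, and besides *ERF6* these included *ERF4* (2.08 ± 0.24), *WRKY33* (1.70 ± 0.08), *WRKY53* (1.69 ± 0.14) and *SZF1* (1.58 ± 0.11). Against WT at T4, 1 gene of the touch, wound and early stress list was higher and 3 lower past the threshold in both isolates. Of all 19437 genes, 154 were higher and 144 lower in that comparison. On the jasmonate list, 0 were higher and 3 lower in TM1 than in TM2 at T4. Of all genes, 0.725% were higher and 0.365% lower in TM1 than in TM2 at T4.

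Of the 10 clock genes left out by name, 5 were also lowest at T2 in all 3 genotypes, by less than the limit, and the smallest differences ran from -1.498 for *ELF4* to 0.30 for *PRR7*. *PRR7*, a repressor in the clock, had means of 120, 23.4, 40.7 and 82.6 FPKM at T0, T2, T4 and T6 in WT, while *TOC1*, which peaks in the evening, rose over the same times from 52.8 to 98.2, 154 and 159, and the part of clock phase at harvest in the values of the 26 genes was not tested.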

How the data were processed

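Leaf 6 RNA of WT, TM1 and TM2 at 4 ages was sequenced by the authors as directional 3′ libraries (BrAD-seq), 3 per group from 1 pool. Reads were aligned with Rsubread to TAIR 10, filtered with HTSFilter and deposited as FPKM made with NOISeq. Tool versions and the strand setting of counting are not given in the sources used here. Whole reads were recovered from the FPKM of 19437 of 19437 genes (largest distance from a whole number 7.85e-05, tolerance 0.0005) and gave the depths. With no counts deposited, log2(FPKM + 1) was fitted with limma 3.58.1 (R 4.3.3) on 12 group means with a trended prior, and p-values were adjusted by Benjamini-Hochberg over all genes in each contrast. The threshold was an adjusted p under 0.05 and 2-fold, and for the mutants against WT both isolates had to pass in the same direction. Single values of 6 mutant and 3 WT libraries were compared by two-sided exact permutation over 84 arrangements. The pseudocount makes fold changes of low genes too small. The fits were tested on simulated data. Python 3.11.15, numpy 2.4.6, pandas 2.3.3 and matplotlib 3.10.9 were used. Alternatives were other pseudocounts, scalings, filters and limits, voom on recovered reads, a replicate block and leaving out a library letter. Genes were named as the 25 with the deepest dip at a mean FPKM of at least 5, those on a list or past the threshold against WT, the 3 largest rises and falls from T0 to T6 in WT, the 3 on each side of the limit and the left-out genes, which took in all 26. The genes given per library were picked after their values were seen. The genes and the lists were chosen with earlier results of these data known.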

Additional observations from a re-analysis of the deposited data

Results flagged for a closer look

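The change from T0 to T6 differed between the mutants (mean of TM1 and TM2) and WT in 5 of the 26 genes by limma, on the log2(FPKM + 1) scale. The difference was -1.501 for *HSPRO2*, -1.34 for *J11*, -1.27 for AT5G62280, 1.27 for *PP2-B13* and 1.13 for *CYP81F2*, with adjusted p of 3.2e-09, 3.3e-06, 0.00152, 0.0239 and 4.7e-04.

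The isolates TM1 and TM2, which carry the same alleles, differed from each other by the same limma test at T0 and at T4. At T0, TM1 was above TM2 by 1.01 in AT1G05675, 1.05 in AT4G39580 and 1.82 in *PP2-B13*. At T4, TM1 was above TM2 by 1.27 in *PUP18*, 1.52 in *ERF6*, 1.302 in *HSPRO2*, 1.85 in *CNI1*, 1.41 in AT1G05675, 1.147 in AT4G39580, 2.44 in *PP2-B13* and 1.26 in *CYP81F2*.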

How the results depend on the processing

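The number of genes that met the rule was 40 with a pseudocount of 0.1, 14 with 5, 49 at a limit of 0.6, 10 at a limit of 1, and 25 to 26 with a library letter left out, against 26. Of the 26 genes, 19, 21 and 21 still met it without A, B and C, and 12 met it in all 3 cases. On adjusted p alone, the counts against WT became 7, 7, 7 and 5 at T0, T2, T4 and T6, those of TM1 against TM2 became 7, 3, 19 and 5, those of T6 against T0 became 14 in WT, 12 in TM1 and 13 in TM2, and that of the difference in this change became 9. With a pseudocount of 0.1 the count against WT at T0 was 0. With a pseudocount of 5 the counts were 1 at T2 and 0 at T6 against WT, 3 for T6 against T0 in TM2, 3 for the difference in this change and 1 for TM1 against TM2 at T0. With a library letter left out, the counts were 0 to 1 against WT at T0 and T6, 3 to 4 for T6 against T0 in TM2, 2 to 4 for the difference in this change, and 8 to 9 for TM1 against TM2 at T4. Of 36 single calls none reversed. All 36 held without the trend, with voom and with a mean FPKM of at least 1, 11 were lost with a pseudocount of 5, 2 each with 0.1, median ratio scaling and quantile normalization, and 7, 7 and 5 without A, B and C. The letters do not pair the libraries, as same-letter correlations of deviations ran from -0.202 to 0.196 and those of different letters from -0.251 to 0.238, and with a replicate block all 36 calls held, with 8 genes for TM1 against TM2 at T4. Depth limits *PP2-B13* and AT5G62280 at T2.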
